A study of Mus musculus with 6 samples.

Results

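Proteins bound for secretion, insulin among them, enter the endoplasmic reticulum (ER) through the translocon, and 10 genes of this machinery were followed here in islet RNA. They are *Sec61a1*, *Sec61b* and *Sec61g*, whose products form the Sec61 channel, *Sec62* and *Sec63*, *Ssr1*, *Ssr2* and *Ssr3* of the translocon-associated protein (TRAP) complex, and *Spcs1* and *Spcs2* of signal peptidase. They were picked by gene symbol, and all 10 are among the 41710 genes of the files. Islets came from 3 WT and 3 *Trpm7R/R* mice, and each mouse gave 1 library. *Trpm7R/R* mice are homozygous for a single amino acid exchange that inactivates the kinase of TRPM7, carried in every tissue, so that effects within islets and from the rest of the body cannot be told apart. WT mice were their littermates, and both were on a C57BL/6 background. All 6 mice had been fed an obesogenic diet with 45% of its energy from fat for 16 weeks, from 8 weeks of age, so no group on chow is part of the comparison. Islets were isolated, kept in culture medium and lysed for low-input RNA chemistry. Libraries carry the numbers 1, 2 and 3 in WT and 4, 6 and 8 in *Trpm7R/R*.

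As a nascent secretory protein leaves the ribosome, the signal recognition particle (SRP) binds its signal peptide and brings the ribosome to the Sec61 channel. SEC62 and SEC63 serve proteins that enter after translation, and SEC63 also recruits the chaperone BiP to the lumenal side of the channel. The TRAP complex assists proteins whose signal peptides engage the channel poorly, and signal peptidase cuts the signal peptide away. In β cells this route carries preproinsulin, and acinar cells around the islets use the same route for digestive enzymes.

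Promoters are shown first, since many ER genes share promoter motifs. RefSeq promoters (build GRCm38.p6, 250 bases before to 50 after the start of the gene) matched 8 of the 10 genes by symbol. Those of *Sec62* and *Sec61g*, with the most spliced reads among the members, are printed 5′ to 3′. They lie at chr3:30792626-30792925 on the plus strand and chr11:16508435-16508734 on the minus strand. Capitals mark CCAAT and CCACG on either strand, the letters at the ends of the ER stress response element.
Sec62: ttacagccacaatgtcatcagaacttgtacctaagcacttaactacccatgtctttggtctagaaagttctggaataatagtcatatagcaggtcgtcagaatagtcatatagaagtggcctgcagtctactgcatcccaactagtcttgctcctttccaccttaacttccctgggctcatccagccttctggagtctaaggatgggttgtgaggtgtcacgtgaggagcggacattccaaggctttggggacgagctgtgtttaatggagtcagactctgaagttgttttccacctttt
Sec61g: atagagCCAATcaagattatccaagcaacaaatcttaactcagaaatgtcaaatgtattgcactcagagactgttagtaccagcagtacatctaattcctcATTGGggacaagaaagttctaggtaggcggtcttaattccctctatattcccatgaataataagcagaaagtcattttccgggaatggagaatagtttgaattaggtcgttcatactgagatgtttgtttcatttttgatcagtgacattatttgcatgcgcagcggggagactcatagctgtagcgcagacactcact
*Sec62* has no capitals, and *Sec61g* has CCAAT once on each strand. The whole element, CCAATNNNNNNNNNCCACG, was searched on both strands, as were its second form (ATTGG and CCACG with 1 base between them) and the core TGACGTG of the unfolded protein response element. These letters stood in 0 of the 8 member promoters. They stood in 0.119%, 0.0365% and 2.01% of all 32851 promoters of the same length, so few matches could be met among 8. For comparison, the promoter of *Hspa5*, the gene of BiP, holds the whole element at chr2:34772025-34772043 of the same build, with its fixed letters in capitals.
Hspa5: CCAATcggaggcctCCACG
CCAAT alone stood in 4 of the 8 promoters and in 37.4% of all promoters. CCACG alone stood in 5 of the 8 and in 32.8%. The GC content was 39.7% in *Sec61g* and 46.0% in *Sec62*, with a median of 52.7% over all promoters.

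Libraries held between 17213285 and 20307909 mapped reads, as implied by the authors' RPKM values, and between 1312128 and 2135466 exon reads. Exon reads of 11 predicted genes, each above 0.1% of exon reads in every library, made up 56.9% ± 10.8 (SD, n = 3 mice) of the total in WT and 63.7% ± 4.74 (SD, n = 3) in *Trpm7R/R*. Introns held 80.5% ± 4.35 (SD, n = 3) and 80.6% ± 2.63 (SD, n = 3) of gene reads. Spliced reads, counted across exon-exon junctions and without those genes or mitochondrial genes, took 0.148% ± 0.0519 (SD, n = 3) of what was mapped in WT, against 0.0458% ± 0.00952 (SD, n = 3) in *Trpm7R/R* (2-sided exact permutation test, p = 0.1, the smallest that 3 against 3 allow). The targeted gene *Trpm7* is transcribed in both genotypes, and its exon reads gave a log2 fold change of -0.08 (standard error, SE, 0.38), which the exchange itself does not check. Introns of Y-linked genes had 0.455 to 0.634 times the autosomal density in WT libraries and in *Trpm7R/R* 4, against 0.0605 and 0.0421 times in *Trpm7R/R* 6 and 8. By these reads, libraries 6 and 8 look female and the others male, although the methods describe sex-matched mice, so genotype and sex cannot be fully told apart. All 10 members are autosomal.
Markers of islet endocrine cells were present in every library, and 8 β cell markers together had 909 to 2315 exon reads per 1000000 mapped reads in WT and 286 to 652 in *Trpm7R/R*. *Ins2*, *Gcg*, *Sst* and *Ppy*, the hormone genes of β, α, δ and PP cells, had log2 fold changes of -2.13, -1.97, -1.68 and -2.37, of which only that of *Ppy* passed (edgeR adjusted p = 0.0255). The 10 acinar markers had 8.39 to 12.1 reads per 1000000 in WT and 7.34 to 9.59 in *Trpm7R/R*, with none of them at 0 in all libraries. Those that could be tested, *Amy2a5* and *Cela2a*, had log2 fold changes of -0.06 and -0.13. In bulk RNA, fewer cells of a type and less RNA per cell cannot be told apart, and the part of these shifts in the values below was not tested.

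Exon reads of most translocon genes were fewer in islets of *Trpm7R/R* mice. Over the 10 genes together they numbered 25.1, 34.3 and 23.6 per 1000000 mapped reads in WT 1, 2 and 3, and 15.9, 14.1 and 15.9 in *Trpm7R/R* 4, 6 and 8. Every *Trpm7R/R* library lay below every WT library. Exon-exon reads of the same genes numbered 7.28, 9.27 and 5.53 per 1000000 mapped reads in WT and 1.63, 1.53 and 1.97 in *Trpm7R/R*, again without overlap. Intron reads were 41.3, 41.5 and 38.6 per 1000000 mapped reads in WT and 35.6, 39.5 and 41.7 in *Trpm7R/R*, and these groups overlapped. Spliced reads as a whole, as counted above, also took a smaller mean share of mapped reads in *Trpm7R/R*, 0.0458% against 0.148% in WT. The lower exon-exon reads are thus not particular to these genes.

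**Figure D1:**
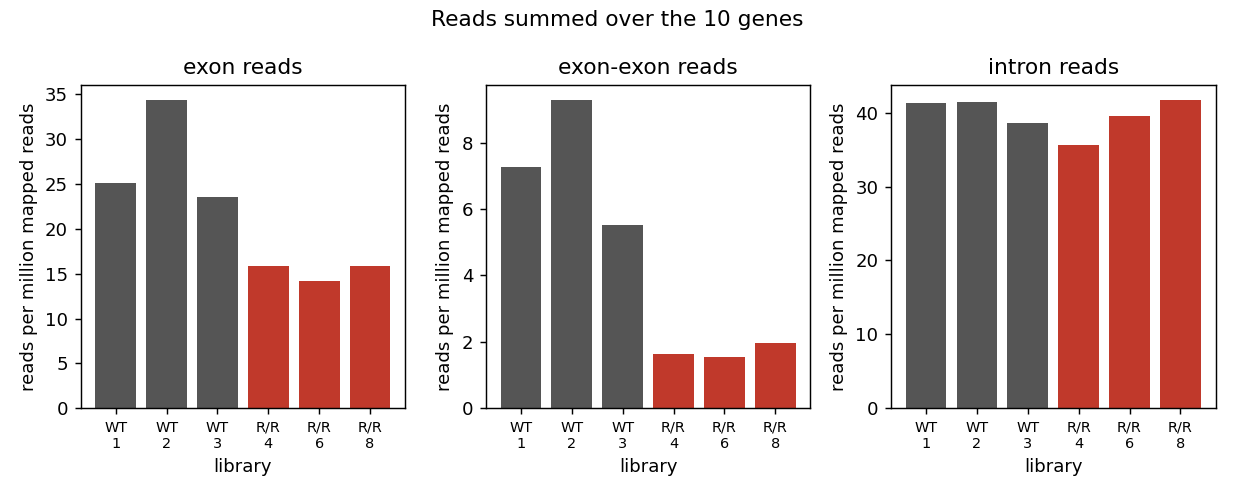
Reads per 1000000 mapped reads (vertical axis, from 0) summed over the 10 genes in each library (horizontal axis, WT in grey, *Trpm7R/R* shown as R/R in red), in exons, across exon-exon junctions and in introns. Exon bars of *Trpm7R/R* are all below those of WT, up to 15.9 against at least 23.6, while intron bars overlap. Exon-exon bars are also all below, up to 1.97 against at least 5.53, and spliced reads as a whole were fewer in *Trpm7R/R* too.

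The genotypes were compared gene by gene with edgeR's quasi-likelihood test on exon reads over 11674 genes, with p-values adjusted over all of them. No member passed an adjusted p of 0.05, a threshold that 0.0257% of all genes tested met with lower reads. At an unadjusted p under 0.05, *Sec62*, *Sec61g*, *Sec61b* and *Spcs2* were lower, and 4.57% of all genes were lower at that level. Of the 10 members, 8 passed the filter on low counts. *Sec61b* and *Spcs2* reached its cutoff in 3 of 3 WT libraries and in 1 of 3 *Trpm7R/R* libraries, and so passed through WT alone, which makes counts over these 8 a description only. *Ssr2* and *Spcs1*, with up to 21 and 16 exon reads in a library, did not pass it. The median log2 fold change of the 8 was -0.99, against 0.01 over all genes tested, and it was 0.39 against 1.35 when libraries were scaled by their ribosomal protein genes, with *Sec61a1*, *Sec63*, *Ssr1* and *Spcs2* then positive.

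**Figure D2:**
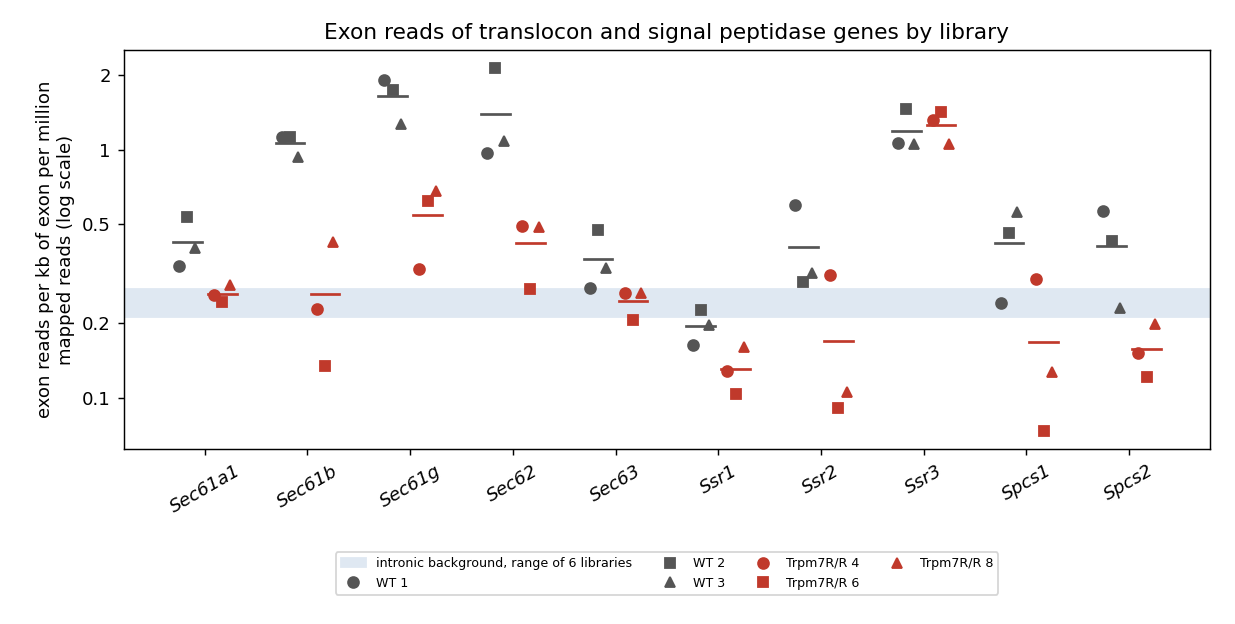
Exon reads per kb of exon per 1000000 mapped reads (vertical axis, log scale) of each gene (horizontal axis), with a point per library (WT in grey, *Trpm7R/R* in red, shapes for libraries) and a line at each group mean; the band is the range of the intronic background over the 6 libraries, 0.213 to 0.274. *Sec61b*, *Sec61g* and *Sec62* are well above the band in WT and nearer to it in *Trpm7R/R*, and *Ssr3* is at the same level in both.

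All 3 subunit genes of the Sec61 channel had fewer exon reads in each *Trpm7R/R* library than in each WT library, and none passed. The same held after scaling, as it did for 6.84% of all genes tested. *Sec61b* passed the filter on low counts through WT alone, so this count is a description only. Differences between the subunits were not tested, and their intervals overlap. *Sec61g* encodes the γ subunit, a short protein with a single membrane span, and lies on chromosome 11. It had 89, 78 and 58 exon reads in WT 1, 2 and 3 and 14, 27 and 34 in *Trpm7R/R* 4, 6 and 8. The lowest WT library had more reads than the highest *Trpm7R/R* library. Normalized counts averaged 73.7 ± 14.9 (SD, n = 3) for WT and 25.5 ± 10.2 (SD, n = 3) for *Trpm7R/R*, which gave a log2 fold change of -1.53 (SE 0.37, edgeR adjusted p = 0.135). Per length, *Sec61g* had the highest level of the members in WT, at 1.64 ± 0.332 (SD, n = 3) exon reads per kb per 1000000 mapped reads, followed by *Sec62* and *Ssr3*, and these neighbours overlapped. In *Trpm7R/R* its level was 0.544 ± 0.187 (SD, n = 3), below that of *Ssr3*.
*Sec61b*, on chromosome 4, encodes the β subunit, which is tail-anchored in the ER membrane. Its exon reads were 27, 26 and 22 in WT and 5, 3 and 11 in *Trpm7R/R*, without overlap. The log2 fold change was -1.93 (SE 0.48, edgeR adjusted p = 0.138), the most negative among the members tested. In *Trpm7R/R* its exons stood at 0.834, 0.630 and 1.76 times the background in libraries 4, 6 and 8, where the background is the median density of intron reads in long introns. In WT they stood at 4.63, 4.71 and 4.00 times. Reads of *Sec61b* in 2 of 3 *Trpm7R/R* libraries thus did not exceed what introns carry.
*Sec61a1*, on chromosome 6, encodes the α subunit that forms the pore. It had 43, 66 and 50 exon reads in WT and 30, 29 and 39 in *Trpm7R/R*, which did not overlap but lay closer together. Its log2 fold change was -0.65 (SE 0.32, 95% interval -1.34 to 0.04, edgeR adjusted p = 0.937). No read of *Sec61a1* crossed an exon-exon junction in any library, although the files list 35 exons for it. Its exons were at 1.79 ± 0.436 (SD, n = 3) times the background in WT and 1.09 ± 0.127 (SD, n = 3) in *Trpm7R/R*. *Sec61a2*, the paralog of the pore subunit, was at 0.76 (95% interval -0.18 to 1.70, edgeR adjusted p = 1.00).

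*Sec62* had a log2 fold change further from 0 than *Sec63*, although the products of these genes bind the channel together. *Sec62*, on chromosome 3, had 79, 169 and 87 exon reads in WT 1, 2 and 3 and 37, 21 and 43 in *Trpm7R/R* 4, 6 and 8. WT 2 stood above the other WT libraries, and all WT libraries stood above all *Trpm7R/R* libraries. Normalized counts averaged 109 ± 45.6 (SD, n = 3) and 33.6 ± 8.71 (SD, n = 3), which gave a log2 fold change of -1.69 (SE 0.36, edgeR adjusted p = 0.0958). This was the smallest p among the members, and the log2 fold change was -1.25 without WT 2. *Sec62* passed with DESeq2 (adjusted p = 0.00859), edgeR's likelihood ratio test (adjusted p = 0.00434) and limma-voom (adjusted p = 0.00185). It also passed with no filter on counts (edgeR adjusted p = 0.0187) and without *Trpm7R/R* 4 (edgeR adjusted p = 0.0266). These are 5 of 21 alternatives to the main fit, over which its log2 fold change ran from -1.92 to -0.26. Each of these 5 settings also called more of all genes than the main fit.
*Sec63*, on chromosome 10, had 46, 76 and 54 exon reads in WT and 40, 32 and 47 in *Trpm7R/R*, where WT 1 had fewer reads than *Trpm7R/R* 8. After scaling, *Sec63* was at -0.52 (SE 0.32, 95% interval -1.21 to 0.16, edgeR adjusted p = 1.00). Its exons were at 1.01 ± 0.0698 (SD, n = 3) times the background in *Trpm7R/R*. The difference between *Sec62* and *Sec63* was not tested.

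Among the TRAP genes, the groups overlapped for *Ssr3* and *Ssr1*, and differences between TRAP genes were not tested. *Ssr3*, on chromosome 3, encodes the γ subunit of TRAP. It had 84, 111 and 81 exon reads in WT and 95, 104 and 89 in *Trpm7R/R*, and the groups overlapped. Its log2 fold change was 0.12 (SE 0.28, 95% interval -0.49 to 0.73, edgeR adjusted p = 1.00), an interval that leaves room for a change in either direction. Reads of *Ssr3* were well above the background, at 5.00 ± 0.973 (SD, n = 3) times in WT and 5.27 ± 1.22 (SD, n = 3) in *Trpm7R/R*. They were only 1.33 ± 0.149 (SD, n = 3) and 1.74 ± 0.455 (SD, n = 3) times the density in its own introns, and 1 exon-exon read was counted over the 6 libraries. Its exon reads are therefore close to its intron reads in density and hold almost no spliced read.
*Ssr1*, on chromosome 13, encodes the α subunit. It had 32, 43 and 38 exon reads in WT and 23, 19 and 34 in *Trpm7R/R*, which overlapped, and a log2 fold change of -0.54 (SE 0.35, edgeR adjusted p = 1.00). With a long exon sequence of 10431 bases, its exons were at or below the background, at 0.820 ± 0.141 (SD, n = 3) times in WT and 0.539 ± 0.108 (SD, n = 3) in *Trpm7R/R*. *Ssr2*, of the β subunit, on chromosome 3, had 21, 10 and 11 exon reads in WT and 10, 3 and 4 in *Trpm7R/R*. Without a filter on counts it was at -1.20 (SE 0.57, edgeR adjusted p = 0.796). *Ssr4*, of the δ subunit and outside the 10, was at -1.35 (SE 0.39, edgeR adjusted p = 0.251), and it passed the filter through WT alone.

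Both signal peptidase genes had few reads, and both had fewer in *Trpm7R/R*. *Spcs2*, on chromosome 7, had 45, 33 and 18 exon reads in WT and 11, 9 and 17 in *Trpm7R/R*. WT 3 was next to *Trpm7R/R* 8, and the groups did not overlap. Its log2 fold change was -1.33 (SE 0.44, edgeR adjusted p = 0.380). *Spcs1*, on chromosome 14, had 7, 13 and 16 exon reads in WT and 8, 2 and 4 in *Trpm7R/R*, which overlapped, and without a filter on counts it was at -1.24 (SE 0.61, edgeR adjusted p = 0.832). *Spcs1* overlaps *Glt8d1* and *Spcs2* overlaps *Xrra1*, each on the opposite strand, and counting used a strand setting not given in the sources used here, so reads of these pairs cannot be told apart. Those genes had 53 and 19 exon reads in all libraries together. The same limit holds for *Sec61a1*, *Sec62* and *Sec63*, which overlap *Gm44170*, *4933429H19Rik* and *Gm26464* on the opposite strand. These had 24, 18 and 1 exon reads in all libraries together. The catalytic subunits, of *Sec11a* and *Sec11c*, were at -0.17 (95% interval -1.03 to 0.68) and -0.43 (95% interval -1.17 to 0.32), with an adjusted p of 1.00 each from edgeR.
After scaling, *Sec61a1*, *Sec61b*, *Sec61g*, *Sec62*, *Sec63* and *Spcs2* were lower in each *Trpm7R/R* library than in each WT library. That is 6 of the 8 members tested, beside 6.84% of all genes tested. Among the 6, *Sec61b* and *Spcs2* passed the filter through WT alone, so this count is a description only.

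No difference was called in intron reads of the same genes, though the intervals given below leave room for a change in either direction. Of the 10 genes, 9 could be tested in introns, with 5 negative and 4 positive log2 fold changes and a median of -0.02, against -0.01 over 20921 genes. None of them was lower or higher at an unadjusted p under 0.05 by edgeR's quasi-likelihood test, and 0.989% of all genes were lower at that level. In 0 of the 9 was every *Trpm7R/R* library below every WT library, beside 3.30% of all genes. *Sec62* had 193, 165 and 119 intron reads in WT and 87, 127 and 154 in *Trpm7R/R*, which overlapped, with a log2 fold change of -0.38 (95% interval -1.04 to 0.27). *Sec61b* had 19, 25 and 19 in WT and 51, 19 and 29 in *Trpm7R/R*, a log2 fold change of 0.60 (95% interval -0.31 to 1.52), opposite in sign to that of its exons. *Sec63* had 248, 237 and 239 intron reads in WT and 205, 255 and 326 in *Trpm7R/R*, a log2 fold change of 0.10 (95% interval -0.36 to 0.57).

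**Figure D3:**
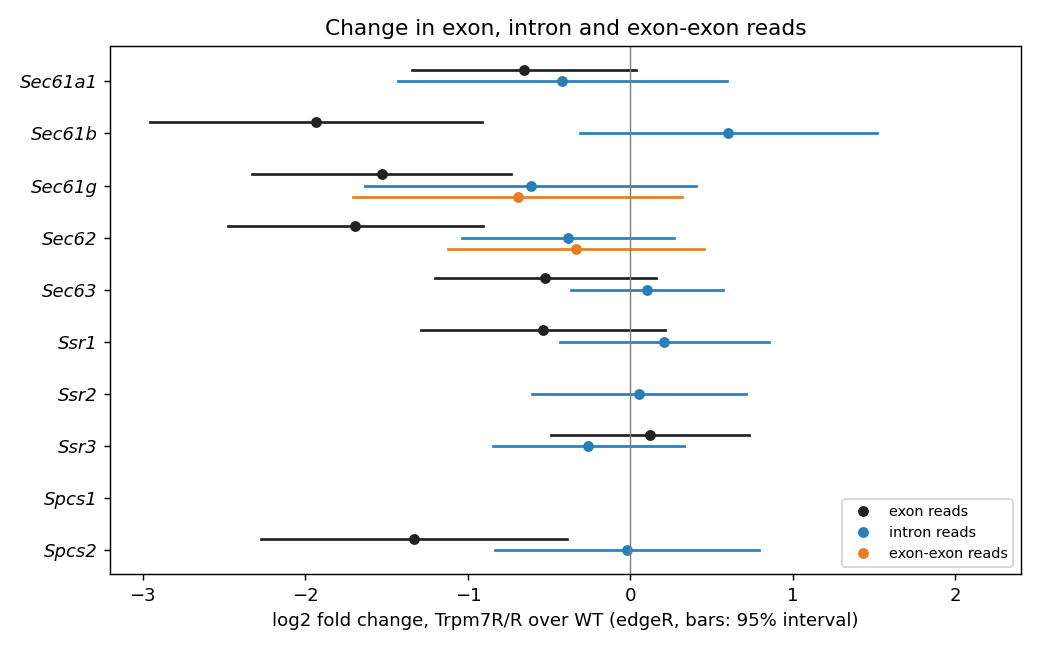
Log2 fold change of *Trpm7R/R* over WT (horizontal axis, edgeR, bars are 95% intervals) for each gene (vertical axis) in exon, intron and exon-exon reads, each scaled within its own reads; genes under the filter on low counts have no point. Exon points of *Sec61b* (-1.93), *Sec62* (-1.69), *Sec61g* (-1.53) and *Spcs2* (-1.33) have intervals below 0, and all intron and exon-exon intervals span 0.

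Exon and intron reads were then set against each other within libraries, with an edgeR model that tests whether the change in exons differs from that in introns of the same gene. No member passed an adjusted p of 0.05, which 0% of the 10106 genes met with exons lower. At an unadjusted p under 0.05 the exon change was lower than the intron change in *Sec61b*, *Sec62*, *Sec61g* and *Spcs2*, beside 3.56% of all genes. Here too *Sec61b* and *Spcs2* passed the filter on exon counts through WT alone, so this count is a description only. The largest gap was that of *Sec61b*, at -2.53 (SE 0.55, edgeR adjusted p = 0.295). For *Sec62* it was -1.21 (SE 0.38, edgeR adjusted p = 0.561), and for *Ssr3* it was 0.45 (SE 0.28, edgeR adjusted p = 0.910).

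Spliced reads of the translocon came mostly from *Sec62* and *Sec61g*. Of 408 exon-exon reads of the members in WT and 95 in *Trpm7R/R*, these genes gave between 78.8% and 92.9% per library. *Sec62* had 52, 94 and 43 exon-exon reads in WT 1, 2 and 3 and 18, 11 and 22 in *Trpm7R/R* 4, 6 and 8, which did not overlap. *Sec61g* had 56, 45 and 43 in WT and 8, 12 and 12 in *Trpm7R/R*, again without overlap. *Sec61b* had 7, 9 and 11 in WT and 0, 1 and 2 in *Trpm7R/R*, *Spcs2* had 12, 8 and 1 against 1, 0 and 3, and *Sec63* had 4, 12 and 2 against 0, 2 and 1. *Ssr1*, *Ssr2*, *Ssr3*, *Spcs1* and *Sec61a1* had 4 or fewer exon-exon reads in either genotype.
The size of this difference depended on what the spliced reads were scaled to. Against mapped reads or exon reads they were far fewer in *Trpm7R/R*, as were spliced reads of other genes. Of the 10 members, only 2, *Sec62* and *Sec61g*, could be tested in exon-exon reads. *Sec61g* was under the cutoff of the filter on low counts in *Trpm7R/R* 4. It thus passed through WT alone, so its values in these tests are a description only. With the scaling of the exon reads, *Sec62* was at -1.85 (SE 0.60, edgeR adjusted p = 0.00536) and *Sec61g* at -2.11 (SE 0.61, edgeR adjusted p = 0.00274). The median over the 181 genes tested was then -1.66, and 71.3% of them were lower at an adjusted p of 0.05. When exon-exon reads were scaled among themselves, *Sec62* was at -0.33 (SE 0.36, 95% interval -1.12 to 0.45, edgeR adjusted p = 0.666) and *Sec61g* at -0.69 (SE 0.47, 95% interval -1.71 to 0.32, edgeR adjusted p = 0.426). Neither was lower at an unadjusted p under 0.05, which 6.08% of the 181 genes were, and 0% passed an adjusted p of 0.05. *Sec62* alone of these genes had every *Trpm7R/R* library below every WT library after this scaling, beside 11.6% of genes. Of 10000 spliced reads, the 10 genes took 46.1, 47.8 and 60.2 in WT and 31.6, 44.0 and 38.5 in *Trpm7R/R*. The libraries of *Trpm7R/R* were all below those of WT, and *Trpm7R/R* 6 was close to WT 1. This sum was not set beside other genes and is a description only. On this scale *Sec62* overlapped, at 17.5 to 26.6 in WT and 17.9 to 21.2 in *Trpm7R/R*. *Sec61g* overlapped too, at 12.7 to 25.4 and 9.04 to 19.6. *Sec61b*, with few such reads, did not, at 2.36 or more in WT and up to 1.93 in *Trpm7R/R*.

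Other genes of ER entry and early processing had the same direction in most cases. Of 56 listed symbols 53 matched and 36 could be tested in exons. Of these 36, 31 had negative and 5 positive log2 fold changes, with a median of -0.63, beside 49.3% of all 11674 genes with negative values, and 0 passed an adjusted p of 0.05 by edgeR. At an unadjusted p under 0.05, 12 were lower and 0 higher, beside 4.57% of all genes that were lower. Of the 36, 12 passed the filter on low counts through WT alone and 1 (*Sec61a2*) through *Trpm7R/R* alone, so that these counts and medians are a description only.
*Hspa5*, which encodes BiP, had the smallest p of this list, with normalized counts of 122 ± 19.0 (SD, n = 3) for WT, 36.5 ± 11.5 (SD, n = 3) for *Trpm7R/R* and a log2 fold change of -1.73 (SE 0.32, edgeR adjusted p = 0.0518). It passed with upper quartile scaling (edgeR adjusted p = 0.0478) and with mapped reads (edgeR adjusted p = 0.0374). With DESeq2 size factors, library size or ribosomal protein gene scaling it was not lower at that threshold. *Rpn1*, *Rpn2* and *Ddost*, of subunits of the oligosaccharyltransferase that glycosylates proteins at the translocon, were at -1.67, -1.47 and -2.11. Few reads lay behind some of these values, as *Rpn1* was kept by the filter through WT alone, and *Ddost* reached its cutoff in 2 WT libraries and 1 *Trpm7R/R* library. *Magt1*, which encodes an oxidoreductase of that complex, was at -1.45. The 9 oligosaccharyltransferase genes tested were all negative, with a median of -1.15, of which 5 had an unadjusted p under 0.05, beside the 4.57% of all genes. *Stt3a* and *Stt3b*, of the catalytic subunits, were at -0.11 and -0.23. The 4 SRP genes tested had a median of -0.88, with *Srp19*, which was at the cutoff in 3 WT libraries and in 0 of *Trpm7R/R*, at -1.90, and the 2 SRP receptor genes a median of -0.36. *Dnajc3*, of a lumenal co-chaperone of BiP, was at -1.14. The 5 genes tested of tail-anchor insertion and the ER membrane complex had a median of -0.21, and 0 of them were lower at an unadjusted p under 0.05 by edgeR. These directions are relative to the bulk of genes. With ribosomal protein gene scaling the median of all genes moved to 1.35, and 29 of the 36 were then positive, 8 of them with an edgeR adjusted p of at most 0.05, with a median of 0.70, or -0.65 relative to all genes. The oligosaccharyltransferase genes then had a median of 0.15, with 5 of the 9 positive. Under the other scalings 31 or 32 of the 36 were negative.

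**Figure D4:**
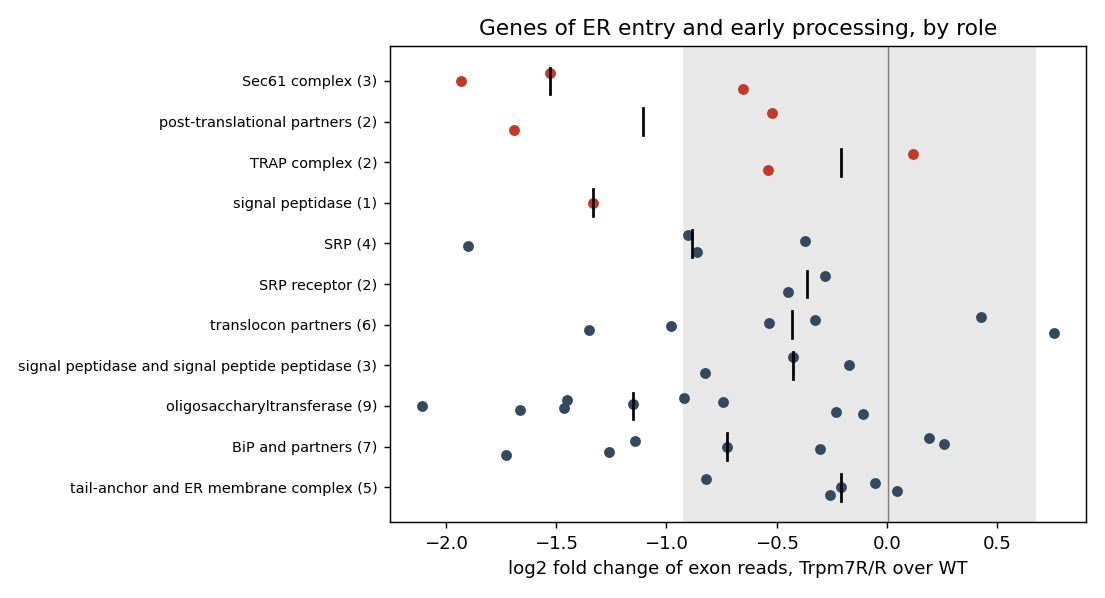
Log2 fold change of exon reads (horizontal axis, *Trpm7R/R* over WT) of single genes (points) grouped by role (vertical axis, number tested in brackets), with the 10 genes' groups in red, other genes in blue and group medians as black bars; the grey band spans all but the outer 5% at each end of the 11674 genes, from -0.92 to 0.67. The medians of the Sec61 complex (-1.53), signal peptidase (-1.33, *Spcs2* alone), oligosaccharyltransferase (-1.15) and *Sec62* with *Sec63* (-1.11) lie left of the band, and single genes of other groups do too.

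Sex was set aside in additional fits chosen after seeing the data. Among male libraries, WT 1, 2 and 3 against *Trpm7R/R* 4 alone, whose spread is assumed to be like that of WT, *Sec61g* was at -2.45 (edgeR adjusted p = 0.0588), *Sec61b* at -2.34 and *Sec62* at -1.63. With sex as a term the genotypes are again compared in WT against *Trpm7R/R* 4 alone, since both other *Trpm7R/R* libraries are the only female ones, so that this is no second check. The values were then -2.41 (edgeR adjusted p = 0.0592), -2.30 and -1.58. The median was -0.81 over 10 members among male libraries and -1.17 over 8 members with sex as a term, so these medians cover different genes.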

How the data were processed

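Islet RNA of 3 WT and 3 *Trpm7R/R* mice was compared. The authors mapped reads and deposited, per library, counts per gene (whole reads in exons, in introns and at exon-exon junctions) beside RPKM values, which they scaled to exon length and mapped reads. They used an aligner and counter not given in the sources used here. Submitters' notes name mm10, but for only 1 of the 10 members did start and end equal the GRCm38 annotation, so no positions of the files are printed. The authors' tables of fold changes and p-values were not used. RPKM served to recover mapped reads, from which levels per kb were recomputed. Total exon, exon-exon and intron counts were each tested with edgeR 4.0.16 (R 4.3.3; quasi-likelihood, TMM, filterByExpr with a minimum of 10 counts, genotype as the only term) and Benjamini-Hochberg adjustment over all genes kept. Exon and intron counts were also fitted together, with library as a block and a term for region by genotype. The common dispersion of exon counts was 0.103. The background is the median intron density of autosomal genes with at least 50000 bases of intron. Alternatives used DESeq2 1.42.0, limma 3.58.1, other scalings, filters and reads, and fits without each library. The sequence of 1 matched promoter is not reported here. The code was tested on simulated data. Each library is 1 mouse. The named genes are the 10 members, the related genes with the smallest p, a few markers and *Trpm7*; *Sec61a2*, *Sec11a*, *Sec11c*, *Stt3a* and *Stt3b* were named after their values were seen. The short motifs CCAAT and CCACG were added after seeing the data, as were the fits on male libraries and with sex as a term. Members and lists were chosen with earlier results of these data known.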

Additional observations from a re-analysis of the deposited data

How the results depend on the processing

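The lower exon reads of the members kept their direction under most settings, but no call was stable. The count of all genes called by exon reads was 3, and was 30 with upper quartile scaling, 23 with library size, 46 with mapped reads, 7828 (7819 higher) with ribosomal protein gene scaling, 141 with no filter, 33 with a filter minimum of 20, 0 with total gene reads, 104 with DESeq2's Wald test, 162 with the likelihood ratio test, 337 with limma-voom, 30 without X and Y genes, 8 among male libraries and 0 with sex as a term (both chosen after seeing the data), and from 0 to 196 without each library in turn. It was 33 without WT replicate 3 and 196 without *Trpm7R/R* replicate 4, and 0 without any of the other libraries. Members called by exon reads numbered 0, against 2 with DESeq2's Wald test, 3 with the likelihood ratio test, 2 with limma-voom, 1 with no filter, 1 (*Ssr3*, higher) with ribosomal protein gene scaling, and 0 to 1 without each library. The median of the members, -0.99 over 8 members, was 0.39 with ribosomal protein gene scaling. It was -0.60 with the filter minimum of 20, which dropped *Sec61b* and *Spcs2*. With total gene reads, which include introns, it was -0.35 over 10 members. Without each library it was -1.38 to -0.84, over 8 to 10 members. With ribosomal protein gene scaling the median of all genes was 1.35, so that the members were at -0.96 relative to it, and *Sec61a1* (0.73), *Sec63* (0.87), *Ssr1* (0.82) and *Spcs2* (0.042) were positive. With total gene reads *Sec63* was at 0.0063 and *Ssr3* at -0.11, and *Ssr3* was at -0.024 without *Trpm7R/R* replicate 6 (up to 0.32 without WT replicate 2). Exon-exon reads called 2 members with exon scaling and 2 with library size, with medians of -1.98 and -1.91. Only these 2 could be tested, and *Sec61g* passed the filter through WT alone. The medians of all genes were then -1.66 and -1.55, and with exon scaling 71.3% of the 181 genes were lower at an adjusted p of 0.05. The median of the members was -1.53 with no filter, over 9 members and beside -0.46 over all genes in that fit. Over 2 members, it was -0.71 to -0.21 without each library. It was -0.21 without WT replicate 3. Intron values near 0 changed sign for *Spcs2* with library size (0.010) and without WT replicate 2 (0.05), WT replicate 3 (0.21), *Trpm7R/R* replicate 6 (0.08) or *Trpm7R/R* replicate 8 (0.10), from a lowest value of -0.26 without WT replicate 1, and for *Ssr2* without *Trpm7R/R* replicate 4 (-0.11, against up to 0.18). The exon against intron value of *Sec61a1* was 0.22 without WT replicate 2 and -0.46 without WT replicate 1. The causes were not tested. No paired analysis was possible because the groups share no replicate number. Few reads per gene limit the precision of several members, as do 3 mice per group.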
